A study of Mus musculus with 14 samples.

Results

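In mouse hearts, 10 chemokine genes were followed: Ccl2, Ccl6, Ccl7, Ccl8, Ccl9, Ccl11, Cxcl10, Cxcl12, Cxcl14 and Cx3cl1. They were taken as a list of symbols, 10 of the 51912 genes in the count tables, and all 10 had a row in every table and passed the filter on low counts. The hearts came from mice on the C57BL/6J background that were labelled as Clk3 knockout (KO) or wild type (WT) and had undergone TAC or a sham operation. TAC is taken to be transverse aortic constriction, which narrows the aorta and loads the left ventricle, and Clk3 is a kinase of the CLK family that phosphorylates splicing factors. The series asks what Clk3 does while the heart enlarges under load. There were 14 libraries: 4 of KO hearts after TAC, 4 of KO sham hearts, 2 of WT hearts after TAC and 4 of WT sham hearts. All TAC mice were 10 weeks old, while 2 libraries of each sham group came from mice of 11 weeks (replicates 1 and 2) and 2 from mice of 10 weeks. The replicate numbers are not in the labels and follow the order of the libraries in the series. The labels do not give the duration of TAC, the sex, or how the allele was made.

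Chemokines are small secreted proteins that bind heparan sulphate on vessel walls and matrix and guide leukocytes through receptors coupled to G proteins. In the heart, Ccl2 and its close relatives draw monocytes through Ccr2, Cxcl12 and Cx3cl1 are made in the steady state by stromal and vascular cells, and Cxcl10 is induced by interferon. Ccl11, also called eotaxin, acts on Ccr3, the receptor of eosinophils.

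Gene counts ran from 11385818 to 20369637 per library. Levels are CPM, the reads of a gene relative to the TMM-scaled total of its library, and a change is the edgeR log2 fold change ± SE, called where the Benjamini-Hochberg adjusted p over 15651 tested genes was under 0.05. Clk3, the targeted gene, still had reads in every library, at 50.7 to 67.4 CPM in the 8 KO libraries, 73.2 to 96 CPM in 5 WT libraries, and 54.2 CPM in the library labelled WT TAC 1. Gm8730, a predicted gene, was at 57.4 to 67.1 CPM in the 8 KO libraries, 1.26 to 1.63 CPM in 5 WT libraries, and 66.8 CPM in the library labelled WT TAC 1. By both genes that library lay within the KO range, against its label, and the calls of chemokine genes that use WT TAC hearts are also given without it.

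After TAC, Ccl11 fell and Ccl8, Cxcl10 and Cx3cl1 rose, in both genotypes. The other 6 genes (Cxcl12, Cxcl14, Ccl6, Ccl9, Ccl2 and Ccl7) did not pass the test. In KO hearts 3 of the 10 were called higher and 1 lower, where 6.73% of all tested genes were called higher and 6.26% lower. In WT hearts it was again 3 higher and 1 lower, against 6.91% and 5.3% of all genes. These WT calls use the library labelled WT TAC 1, and those of Ccl8, Cxcl10 and Cx3cl1 were not kept without it, as given below. Averaged over both genotypes the same 4 genes were called, against 14.2% of all genes higher and 13.1% lower. Among them, Cxcl10 had passed the filter on low counts through TAC hearts alone. In whole hearts, fewer cells of a type and less RNA per cell cannot be told apart.

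**Figure D1:**
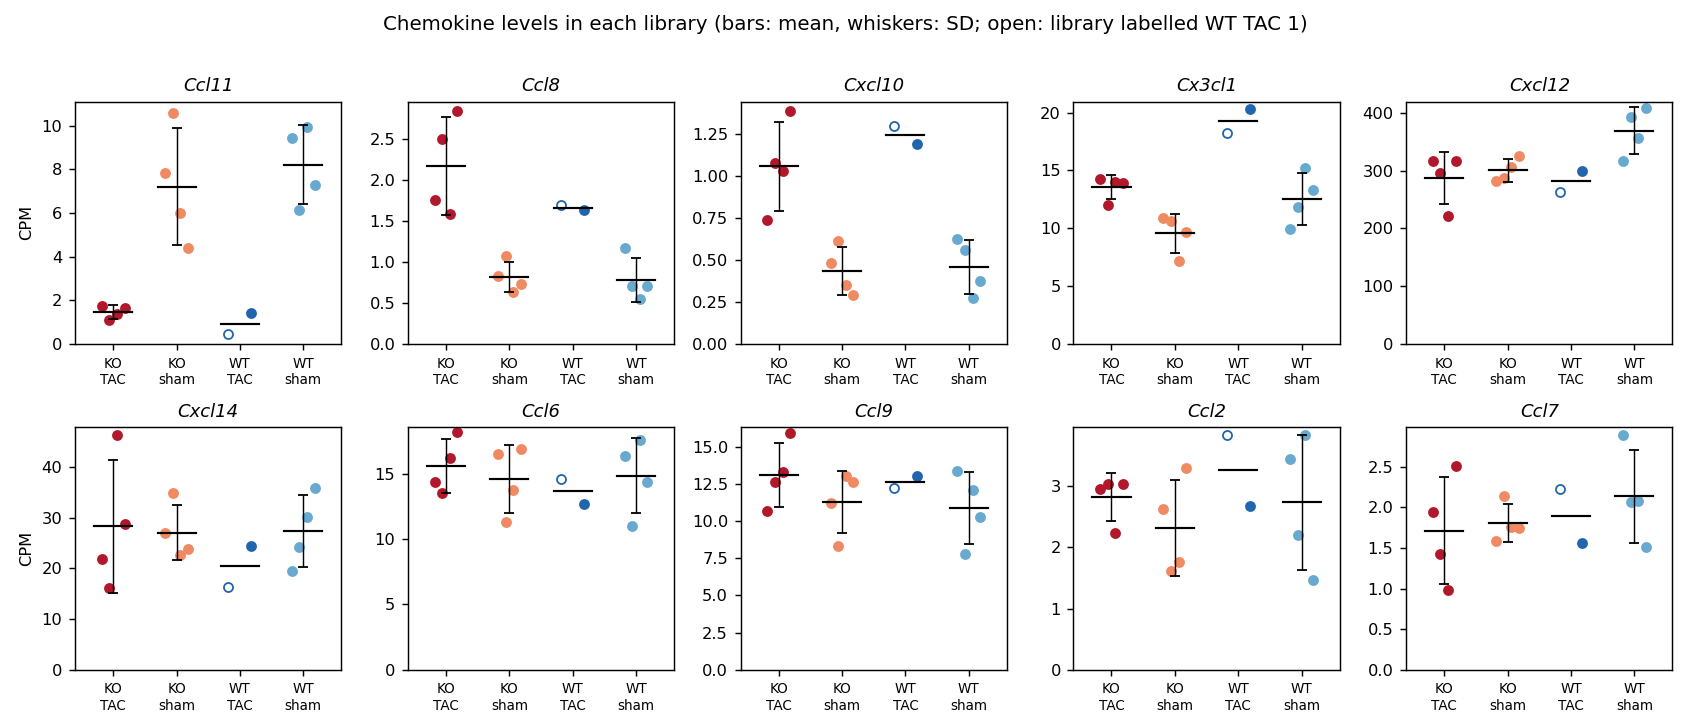
CPM of the 10 chemokine genes in each library, by group from left to right: KO TAC, KO sham, WT TAC and WT sham. Points are libraries, horizontal bars are means, whiskers are the SD for the groups of 4, and the open circle is the library labelled WT TAC 1; the Ccl11 points of all 6 TAC hearts (0.46 to 1.75 CPM) lie under those of all 8 sham hearts (4.38 to 10.6 CPM).

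Ccl11 stands on mouse chromosome 11 (82057823 to 82062955, plus strand, GRCm38; ENSMUSG00000020676.2). It was at 1.75, 1.08, 1.36 and 1.65 CPM in the 4 KO TAC hearts, against 7.85, 10.6, 5.99 and 4.38 CPM in the 4 KO sham hearts. In WT hearts it was at 0.46 and 1.41 CPM after TAC, against 9.45, 6.12, 9.96 and 7.28 CPM after sham. No TAC heart reached the lowest sham heart, and the lowest value of all was that of the library labelled WT TAC 1. How many of all tested genes separate TAC from sham hearts without overlap was not counted, here or for the genes below. The change was -2.31 ± 0.31 in KO hearts, a 4.96-fold fall (edgeR quasi-likelihood test, adjusted p = 0.000834), and -3.11 ± 0.43 in WT hearts, an 8.62-fold fall (adjusted p = 0.000259). Over both genotypes it was -2.71 ± 0.26 (adjusted p = 5.92e-06). Without the library labelled WT TAC 1 the WT change was -2.53 (adjusted p = 0.0125), on a single TAC heart whose spread is assumed to be that of the other groups. Without WT TAC 2 instead it was -4.12 (adjusted p = 0.000584), and over both genotypes -3.22 (adjusted p = 1.46e-05). The fall rests on modest numbers of reads, 6 to 25 per TAC heart and 60 to 182 per sham heart. The share of Ccl11 reads in its coding part had medians of 47.9% in TAC and 46.7% in sham hearts, and the ranges overlapped.

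Ccl8, a ligand of Ccr8 in mice that macrophages make, was the largest riser in KO hearts. It was at 1.75, 2.5, 1.58 and 2.84 CPM in KO TAC hearts, against 0.826, 1.07, 0.634 and 0.731 CPM in KO sham hearts. The WT hearts had 1.69 and 1.63 CPM after TAC, against 1.17, 0.701, 0.547 and 0.701 CPM after sham. Every TAC heart stood above every sham heart, with a narrow gap to the first WT sham heart. The change was 1.41 ± 0.28 in KO hearts (2.65-fold, edgeR adjusted p = 0.00545) and 1.12 ± 0.34 in WT hearts (2.18-fold, adjusted p = 0.0393). The WT call did not hold with DESeq2 (adjusted p = 0.0506), nor without WT sham 2, 3 or 4 (0.98 to 1.08, adjusted p = 0.0736 to 0.0946) or WT TAC 2 (1.15, adjusted p = 0.0974). Of 7 other settings of the fit, DESeq2 among them, 3 kept the WT call. Counts were low, 19 to 43 reads in TAC hearts and 9 to 15 in sham hearts.

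Cxcl10, the interferon-induced ligand of Cxcr3 on T cells, was the least abundant of the 10. Its level was 0.739, 1.08, 1.03 and 1.39 CPM in KO TAC hearts, against 0.482, 0.613, 0.352 and 0.292 CPM in KO sham hearts. It was 1.3 and 1.19 CPM in WT TAC hearts, against 0.625, 0.561, 0.274 and 0.377 CPM in WT sham hearts. The TAC and sham values did not overlap, although they rest on 8 to 21 and 4 to 12 reads per library. Only TAC hearts brought Cxcl10 past the filter on low counts, so it was tested through the group where it was high. The change was 1.29 ± 0.33 in KO hearts (edgeR adjusted p = 0.0184) and 1.44 ± 0.37 in WT hearts (adjusted p = 0.0163). The KO call was lost without KO sham 3 (1.21, adjusted p = 0.0518) or KO TAC 4 (adjusted p = 0.0588). Cxcl10 lies inside Art3, which is read from the opposite strand, and the strand setting of the counting is not given. Art3 was far more abundant, at 187 to 269 CPM in TAC and 242 to 339 CPM in sham hearts, and moved the other way, with a change of -0.36 ± 0.07 over both genotypes (adjusted p = 0.00235).

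Cx3cl1, or fractalkine, is made as a membrane-anchored protein of endothelium and other cells and is the ligand of Cx3cr1. It was at 14.3, 12, 14 and 13.9 CPM in KO TAC hearts, against 10.9, 10.6, 7.19 and 9.64 CPM in KO sham hearts. In WT hearts it was at 18.2 and 20.3 CPM after TAC, against 9.92, 11.8, 15.2 and 13.3 CPM after sham. Within each genotype the TAC hearts all lay above the sham hearts, while the KO TAC and WT sham values overlapped. The change was smaller than for the other risers, 0.50 ± 0.14 in KO hearts (1.41-fold, edgeR adjusted p = 0.0329) and 0.61 ± 0.16 in WT hearts (1.53-fold, adjusted p = 0.0229), on 102 to 277 reads per library. These calls stood near the threshold. In KO hearts the call was lost without KO sham 2, 3 or 4 or KO TAC 1, 3 or 4 (0.38 to 0.55, adjusted p = 0.0519 to 0.0889), and in WT hearts without WT sham 2 (0.58, adjusted p = 0.0561) or WT TAC 2 (0.53, adjusted p = 0.114). With age as a covariate the changes were 0.48 in KO hearts (adjusted p = 0.123) and 0.60 in WT hearts (adjusted p = 0.0627).

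Averaged over both genotypes, the change was 1.26 ± 0.22 for Ccl8 (adjusted p = 0.000625), 1.37 ± 0.25 for Cxcl10 (adjusted p = 0.000781) and 0.56 ± 0.11 for Cx3cl1 (adjusted p = 0.00163). Taken one at a time in KO hearts, Ccl8, Cxcl10, Cx3cl1 and Ccl11 each reached the smallest value an exact two-sided permutation test allows for 4 against 4 libraries, p = 0.0286. Groups of 4 without overlap always give this value, so the test adds nothing to the lack of overlap described above. It is also not adjusted for the number of genes. In WT hearts the exact permutation test of 2 against 4 libraries cannot go below p = 0.0667, the value that all 4 genes reached. Without the library labelled WT TAC 1 the WT changes were 1.10 for Ccl8 (adjusted p = 0.214), 1.37 for Cxcl10 (adjusted p = 0.151) and 0.69 for Cx3cl1 (adjusted p = 0.0945), so that only Ccl11 stayed called in WT hearts. Without it, the mean of both genotypes kept all 4 calls, with adjusted p-values of 0.000101 for Ccl11, 0.00535 for Ccl8, 0.00712 for Cxcl10 and 0.00585 for Cx3cl1.

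Age differed between the surgeries, since no TAC mouse was 11 weeks old. Among the 10-week libraries alone the changes over both genotypes were -2.51 for Ccl11 (adjusted p = 0.00032), 1.53 for Ccl8 (adjusted p = 0.00438), 1.81 for Cxcl10 (adjusted p = 0.00328) and 0.56 for Cx3cl1 (adjusted p = 0.00832). In KO hearts at 10 weeks, 4 against 2 libraries, none of the 10 was called and only 15 of 15391 genes were. There the change was -1.84 for Ccl11 (adjusted p = 0.058), 1.66 for Ccl8 (adjusted p = 0.0792), 1.71 for Cxcl10 (adjusted p = 0.0956) and 0.69 for Cx3cl1 (adjusted p = 0.0792). Arntl, a core clock gene looked at after values were seen, also moved with surgery, by 1.31 ± 0.35 over both genotypes (adjusted p = 0.0122), and its part in these changes was not tested. Arntl was low in KO TAC 3, at 9.02 CPM, where Ccl11 was at 1.36 CPM like the other TAC hearts, and high in KO sham 4, at 24.3 CPM, where Ccl11 was at 4.38 CPM, the lowest of the sham hearts.

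**Figure D2:**
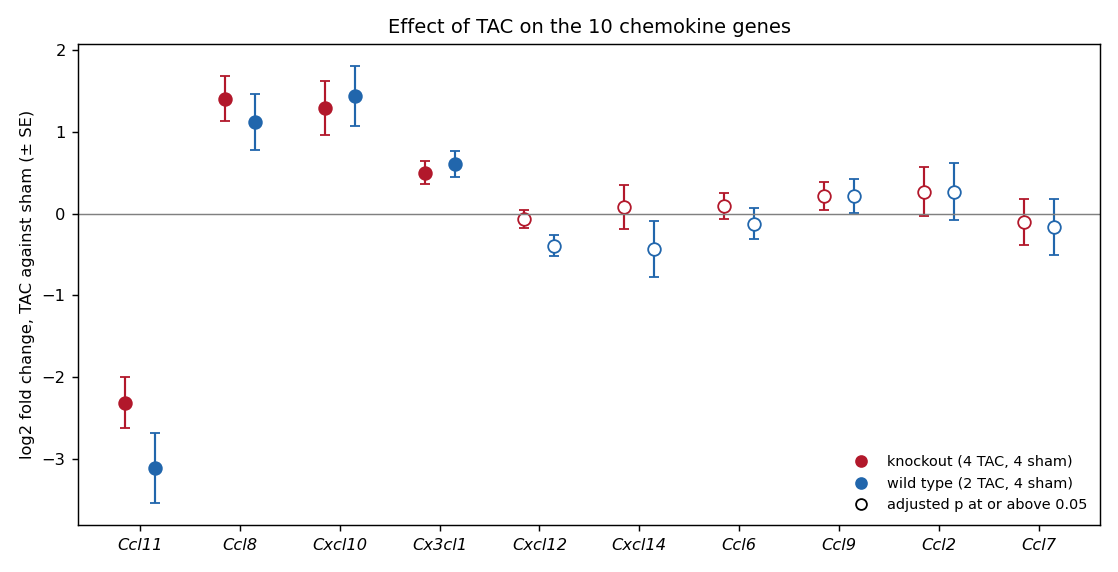
Log2 fold change of each chemokine gene, TAC against sham, with its SE, in KO hearts (red, 4 against 4 libraries) and WT hearts (blue, 2 against 4). Filled circles have an adjusted p under 0.05; Ccl11 lies at -2.31 and -3.11, and Ccl8, Cxcl10 and Cx3cl1 lie between 0.50 and 1.44 in both genotypes.

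Ccl11 and Ccl8 stood in opposite order in TAC and sham hearts. Divided by exon length, so that the genes can be compared, Ccl11 was at 1.35 ± 0.281 CPM per kb and Ccl8 at 4.24 ± 1.18 CPM per kb in KO TAC hearts (SD, n = 4), while in KO sham hearts Ccl11 was at 6.67 ± 2.48 and Ccl8 at 1.6 ± 0.368 CPM per kb (SD, n = 4). In WT hearts the ratio of Ccl11 to Ccl8 per kb was 0.129 and 0.408 after TAC, against 3.81, 4.12, 8.6 and 4.9 after sham. In KO hearts it was 0.472, 0.204, 0.407 and 0.275 after TAC, against 4.49, 4.69, 4.46 and 2.83 after sham. Ccl8 exceeded Ccl11 in each TAC heart and Ccl11 exceeded Ccl8 in each sham heart. The pair was picked for opposite changes, so the ratio is a description and carries no test.

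**Figure D3:**
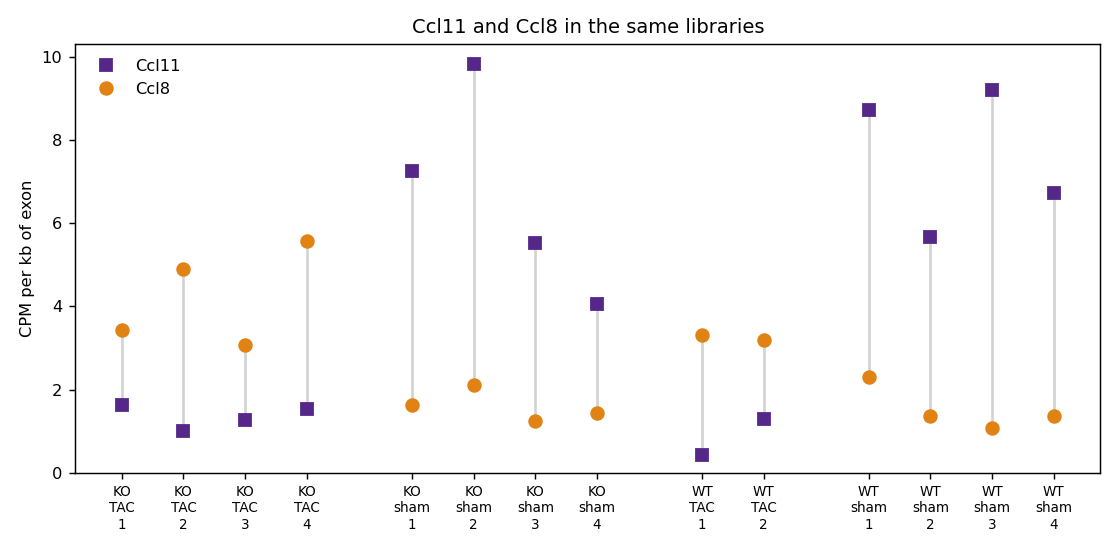
CPM per kb of exon of Ccl11 (squares) and Ccl8 (circles) in each of the 14 libraries, grouped as KO TAC, KO sham, WT TAC and WT sham, with a grey line joining the 2 genes of a library. The circle is above the square in all 6 TAC hearts and below it in all 8 sham hearts.

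Both genes belong to 1 block on chromosome 11 in which 5 chemokine genes, all on the plus strand, lie within 81.2 kb in the order Ccl2, Ccl7, Ccl11, Ccl12 and Ccl8. Ccl2 (82035571 to 82037453) and Ccl7 (82045712 to 82047525), ligands of the monocyte receptor Ccr2, lie before Ccl11, and Ccl8 (82115185 to 82116799) lies at the far end. Ccl12, a further Ccr2 ligand of mice that is not among the 10, lies between Ccl11 and Ccl8. It was at 1.39, 1.22, 1.09 and 1.32 CPM in KO TAC hearts, against 0.344, 0.766, 0.916 and 0.292 CPM in KO sham hearts, and at 2.46 and 1.56 CPM in WT TAC hearts, against 1.95, 1.31, 0.766 and 0.917 CPM in WT sham hearts. Over both genotypes Ccl12 rose by 0.91 ± 0.27 (edgeR adjusted p = 0.0203), a call that is lost without the library labelled WT TAC 1 (0.73, adjusted p = 0.135). The neighbours thus moved in different ways: Ccl11 fell, Ccl12 and Ccl8 rose, and Ccl2 and Ccl7 did not pass the test.

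**Figure D4:**
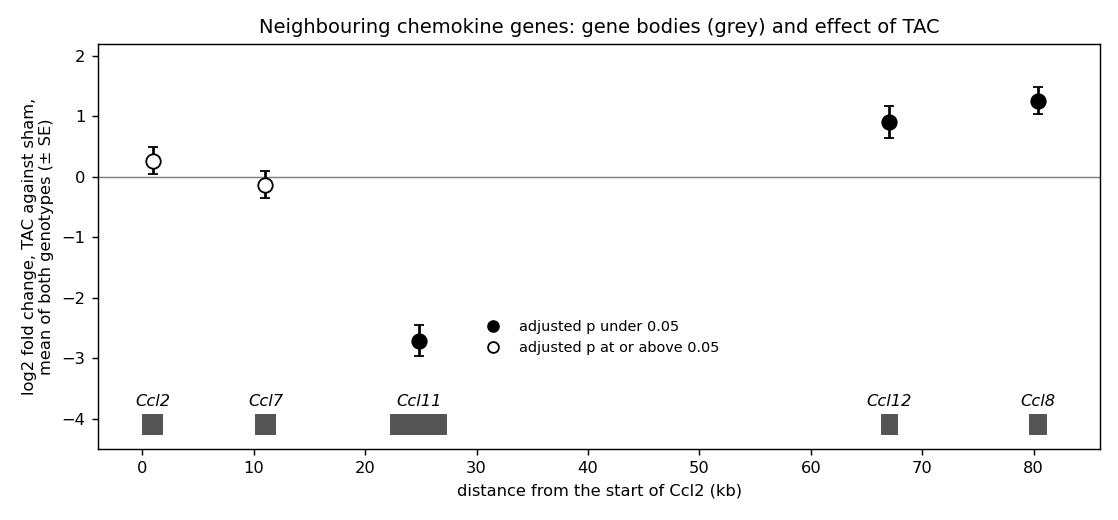
Log2 fold change after TAC, mean of both genotypes, with its SE, for the 5 neighbouring chemokine genes, drawn above their gene bodies (grey boxes) by distance in kb from the start of Ccl2. Filled circles have an adjusted p under 0.05; Ccl11, at -2.71, lies between Ccl7, at -0.13, and Ccl12, at 0.91.

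Ccl2, which recruits monocytes through Ccr2, was at 2.95, 3.04, 2.23 and 3.04 CPM in KO TAC hearts, against 2.62, 1.61, 1.76 and 3.29 CPM in KO sham hearts. WT hearts had 3.84 and 2.67 CPM after TAC, against 3.44, 2.2, 3.83 and 1.46 CPM after sham. The groups overlapped and the change over both genotypes was 0.27 ± 0.23 (edgeR adjusted p = 0.417). Ccl7 was still lower, at 0.978 to 2.51 CPM in TAC and 1.51 to 2.89 CPM in sham hearts, with a change of -0.13 ± 0.22 (adjusted p = 0.706). With 21 to 70 reads of Ccl2 and 18 to 44 of Ccl7 per library, small changes would not be seen at this depth.

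Ccl9 and Ccl6 are a second pair of neighbours on chromosome 11, on the minus strand within 20.2 kb (Ccl9 83572919 to 83578636, Ccl6 83587882 to 83593087). Both encode mouse ligands of Ccr1 made by myeloid cells. Ccl6 was at 12.7 to 18.2 CPM in TAC and 11 to 17.6 CPM in sham hearts, and Ccl9 at 10.7 to 15.9 CPM in TAC and 7.81 to 13.4 CPM in sham hearts. Their changes over both genotypes, -0.01 ± 0.12 for Ccl6 (edgeR adjusted p = 0.945) and 0.22 ± 0.13 for Ccl9 (adjusted p = 0.241), were within the spread between hearts.

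Cxcl12, which retains blood progenitors and lymphocytes and guides vessel growth through Cxcr4, was by far the most abundant of the 10. It was at 316, 296, 221 and 317 CPM in KO TAC hearts, against 282, 287, 307 and 325 CPM in KO sham hearts, and at 263 and 300 CPM in WT TAC hearts, against 317, 393, 357 and 409 CPM in WT sham hearts. The WT groups did not overlap, yet the WT change of -0.39 ± 0.13 missed the threshold (edgeR adjusted p = 0.0716). In KO hearts it was -0.06 ± 0.11 (adjusted p = 0.738), and over both genotypes -0.23 ± 0.09 (adjusted p = 0.0623). The difference between the genotypes' changes was 0.33 ± 0.17 (adjusted p = 0.798). DESeq2 called the fall in WT hearts (adjusted p = 0.0438) and over both genotypes (adjusted p = 0.0479), as did edgeR with no filter on low counts (adjusted p = 0.0192 in WT hearts and 0.0291 over both) and without WT sham 1 (-0.45 in WT hearts, adjusted p = 0.0356; -0.26 over both, adjusted p = 0.031), while without the library labelled WT TAC 1 the WT change was -0.30 (adjusted p = 0.431).

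Cxcl14 is a chemokine of epithelial and stromal cells whose levels spread widely among KO TAC hearts. It was at 21.9, 16.2, 46.3 and 28.8 CPM in KO TAC hearts, against 26.9, 34.8, 22.6 and 23.9 CPM in KO sham hearts. In WT hearts it was at 16.4 and 24.4 CPM after TAC, against 19.5, 24.2, 30.2 and 35.9 CPM after sham. The values overlapped throughout, and the change over both genotypes was -0.18 ± 0.21 (edgeR adjusted p = 0.582). Among the TAC hearts KO TAC 3, the highest for Cxcl14, was the lowest for Cxcl12, Ccl7 and Ccl8.

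Per kb of exon the order of levels in TAC hearts was Cxcl12 (34.9 ± 4.54 CPM per kb), Cxcl14 (14.1 ± 6.12), Ccl6 (8.31 ± 1.11), Ccl9 (4.26 ± 0.554), Cx3cl1 (3.93 ± 0.795), Ccl8 (3.91 ± 1.05), Ccl2 (2.6 ± 0.466), Ccl7 (2.21 ± 0.702), Ccl11 (1.19 ± 0.433) and Cxcl10 (0.498 ± 0.102; SD, n = 6). In sham hearts it was Cxcl12 (40.9 ± 5.77 CPM per kb), Cxcl14 (14.9 ± 3.21), Ccl6 (8.21 ± 1.42), Ccl11 (7.12 ± 2.02), Ccl9 (3.64 ± 0.695), Cx3cl1 (2.82 ± 0.615), Ccl7 (2.46 ± 0.547), Ccl2 (2.22 ± 0.8), Ccl8 (1.56 ± 0.424) and Cxcl10 (0.198 ± 0.063; SD, n = 8). Ccl9, Cx3cl1 and Ccl8 in TAC hearts, Ccl6 and Ccl11 as well as Cx3cl1 and Ccl7 in sham hearts, and Ccl7 and Ccl2 in both, differed by less than 1 SD. Ccl11 thus stood between Ccl7 and Cxcl10 in TAC hearts and between Ccl6 and Ccl9 in sham hearts.

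RefSeq promoters were on file for 7 of the 10 genes, Ccl6, Ccl8, Ccl9, Cxcl10, Cxcl12, Cxcl14 and Cx3cl1. The 250 bases before the start of Cxcl10 and Ccl8, the genes of the largest rises, are shown because both rose, and each is the other's most alike gene by the measure given at the end. Capitals mark matches to the NF-kappaB consensus, the interferon response core GAAANNGAA and the TATA box TATAAA, searched on both strands, 5′ to 3′ in the direction of the gene (GRCm38.p6).
Cxcl10: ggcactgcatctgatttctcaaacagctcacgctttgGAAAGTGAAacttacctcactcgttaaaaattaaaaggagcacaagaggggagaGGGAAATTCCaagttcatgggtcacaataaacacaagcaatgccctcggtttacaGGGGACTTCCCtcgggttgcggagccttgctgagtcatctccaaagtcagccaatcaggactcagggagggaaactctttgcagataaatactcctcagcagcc
Ccl8: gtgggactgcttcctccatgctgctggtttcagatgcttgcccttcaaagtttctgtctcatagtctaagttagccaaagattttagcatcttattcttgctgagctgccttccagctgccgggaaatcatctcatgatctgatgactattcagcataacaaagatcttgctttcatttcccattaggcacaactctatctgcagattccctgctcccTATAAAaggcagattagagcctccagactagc
The Cxcl10 window is chr5:92348890-92349139 on the minus strand and that of Ccl8 is chr11:82114935-82115184 on the plus strand. Cxcl10 had 1 match to the interferon response core, at -213 to -205 from the start, and NF-kappaB matches at -159 to -150 and at -104 to -94, where 2 matches overlap. Ccl8 had a TATA box at -32 to -27 and no match to the other motifs in this window. The NF-kappaB consensus was also found in Ccl9, the interferon response core in Cxcl14, and the TATA box in Ccl9 and Cx3cl1. Of 32841 RefSeq promoters, 7.25% held the NF-kappaB consensus, 7.13% the interferon response core and 12.4% the TATA box in the same window. A match is a string of letters and not a measured site.

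Between the genotypes, no chemokine of the 10 was called in either surgery. After TAC the changes in KO against WT hearts ran from -0.51 to 0.62, and 1.48% of all genes were called. In sham hearts they ran from -0.39 to 0.10, and 0.888% of all genes were called. At an unadjusted p under 0.05 there was 1 gene after TAC, Cx3cl1, and there were 2 in sham hearts, Cx3cl1 and Cxcl12. DESeq2 called none of the 10 in either. Cx3cl1 averaged 13.6 ± 1.07 CPM in KO TAC hearts (n = 4) and 19.2 ± 1.49 CPM in WT TAC hearts (n = 2), without overlap (-0.51 ± 0.17, adjusted p = 0.155). Leaving out the library labelled WT TAC 1 gave -0.58 for Cx3cl1 (adjusted p = 0.28) and 0.04 for Ccl11, against 0.62 with it (adjusted p = 0.614) and 1.63 without WT TAC 2 (adjusted p = 0.273), and none of the 10 was called. In sham hearts it averaged 9.59 ± 1.69 CPM in KO and 12.5 ± 2.23 CPM in WT hearts (SD, n = 4 each; -0.39 ± 0.14, adjusted p = 0.161). Cxcl12 averaged 300 ± 19.6 CPM in KO sham hearts and 369 ± 41.1 CPM in WT sham hearts (SD, n = 4 each; -0.30 ± 0.11, adjusted p = 0.165).

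In a comparison of the genotypes averaged over both surgeries, added after these values were seen, Cx3cl1 was called lower in KO hearts (-0.45 ± 0.11, edgeR adjusted p = 0.0251), where 6.41% of all genes were called. Without the library labelled WT TAC 1 it was -0.49 (adjusted p = 0.049), and the call was lost without WT TAC 2 (-0.41, adjusted p = 0.0774) and without KO TAC 2 (-0.42, adjusted p = 0.0569). Cx3cr1, its receptor, was also lower in KO hearts in that comparison (-0.78 ± 0.18, adjusted p = 0.0191), but not called without the library labelled WT TAC 1 (-0.64, adjusted p = 0.0874). The interaction test called a genotype difference in the effect of TAC for none of the 10, and for 0.0192% of all genes. No member had an unadjusted p under 0.05 in it, and DESeq2 called none of the 10. With 2 WT TAC libraries the test cannot show that the effects are alike. For Ccl11 the difference between the KO and WT changes was 0.80 ± 0.55 (adjusted p = 0.848), with 0.22 without the library labelled WT TAC 1 (adjusted p = 0.99) and 1.81 without WT TAC 2 (adjusted p = 0.364).

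Of the receptors, 9 of 22 listed genes were abundant enough to test. Over both genotypes 6 rose after TAC and none fell, where 14.2% of all tested genes were called higher and 13.1% lower. Cxcr6, among the 6, was tested only because its TAC levels passed the filter on low counts. The median change was 0.64, against 0.10 over the 10 ligands and -0.00 over all genes. Cx3cr1, the fractalkine receptor of monocytes and macrophages, rose by 1.18 ± 0.18 (edgeR adjusted p = 0.000225) and was called in KO hearts (1.09 ± 0.24, adjusted p = 0.0107) and in WT hearts (1.28 ± 0.26, adjusted p = 0.0047). It was at 8.22, 10.8, 6.36 and 12.8 CPM in KO TAC hearts, against 3.3, 4.44, 5.14 and 5.04 CPM in KO sham hearts, and at 20.6 and 14.4 CPM in WT TAC hearts, against 4.92, 9.53, 7.77 and 6.36 CPM in WT sham hearts. Without the library labelled WT TAC 1 the WT change was 1.00 (adjusted p = 0.123) and that over both genotypes 1.05 (adjusted p = 0.00316). Within each genotype TAC hearts lay above sham hearts for both Cx3cl1 and Cx3cr1, ligand and receptor.

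Ccr2, the receptor of Ccl2, Ccl7 and Ccl12 on monocytes, averaged 11.6 ± 5.12 CPM in KO TAC hearts (n = 4) and 6.64 ± 0.964 CPM in KO sham hearts (n = 4), and was at 15.9 and 16.8 CPM in WT TAC hearts, against 4.15 to 8.2 CPM in WT sham hearts. It rose by 1.12 ± 0.22 over both genotypes (edgeR adjusted p = 0.00165) and was not called in KO hearts alone (0.80 ± 0.29, adjusted p = 0.078). KO TAC 3, at 5.81 CPM, stayed among the sham values. Ccr1, the receptor of Ccl6 and Ccl9, rose by 1.11 ± 0.30 (adjusted p = 0.0123). Cxcr6, the receptor of Cxcl16, and the scavenger receptors Ackr2 and Ackr4, which take up chemokines without signalling through G proteins, rose by 2.01 ± 0.40, 0.62 ± 0.14 and 0.64 ± 0.17 (adjusted p = 0.0017, 0.00471 and 0.0094). Cxcr6 ranged from 0.185 to 2.69 CPM in TAC and from 0.108 to 0.459 CPM in sham hearts, which were all under the filter on low counts. The Cxcl12 receptors Cxcr4 (0.34 ± 0.13, adjusted p = 0.0638) and Ackr3 (0.23 ± 0.10, adjusted p = 0.0994) were not called. Cx3cr1, Ccr2, Cxcr6 and Ackr2 stayed called over both genotypes without the library labelled WT TAC 1, while Ccr1 (0.86, adjusted p = 0.102) and Ackr4 (0.30, adjusted p = 0.169) did not. With the 10-week libraries alone 3 were called, Cx3cr1, Ccr2 and Cxcr6, where 11.6% of all genes were called.

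**Figure D5:**
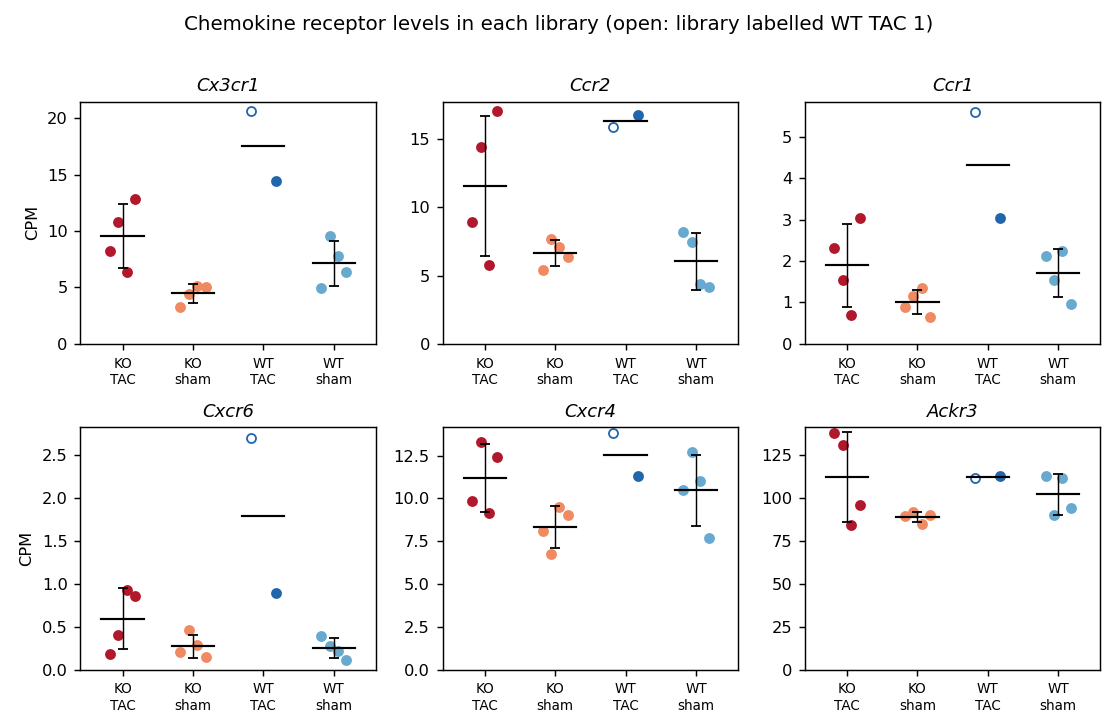
CPM of 6 chemokine receptor genes in each library, in the order KO TAC, KO sham, WT TAC and WT sham, with means (bars), SD (whiskers, groups of 4) and the library labelled WT TAC 1 as an open circle. Cx3cr1 separates TAC from sham within each genotype, while the Ccr2, Ccr1 and Cxcr6 values of KO TAC hearts spread into the sham range.

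The receptors of Ccl11 and Cxcl10 were too low to test. Ccr3 had 8 reads in all 14 libraries together and none in 8 of them. Cxcr3 ranged from 0.0923 to 0.543 CPM in TAC hearts and from 0 to 0.219 CPM in sham hearts. Ackr1, which binds several CC and CXC chemokines on venules, ranged from 0.132 to 0.554 CPM in TAC and from 0.0766 to 0.701 CPM in sham hearts.

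Among 29 other chemokine ligand genes 12 were tested, and 2 rose and 2 fell over both genotypes, with a median change of 0.29. Both counts are near the shares over all tested genes, 14.2% higher and 13.1% lower. Besides Ccl12, Cxcl16 rose by 0.49 ± 0.10 (edgeR adjusted p = 0.00188). Ccl24, a second eotaxin and ligand of Ccr3, fell like Ccl11 but by less, -0.74 ± 0.23 (adjusted p = 0.028), at 0.761 to 2.4 CPM in TAC and 1.89 to 2.89 CPM in sham hearts, which overlapped. Ccl25 fell by 0.35 on the log2 scale (adjusted p = 0.0291). Only Cxcl16 stayed called without the library labelled WT TAC 1 (0.49, adjusted p = 0.0109), while Ccl24 was at -0.86 (adjusted p = 0.0553).

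Of 7 proteases that cleave chemokines, all tested, 2 rose and 2 fell over both genotypes, against 14.2% of all genes higher and 13.1% lower. Mmp2 and Mmp14, which trim chemokines in the extracellular space, rose by 0.99 ± 0.07 and 1.00 ± 0.13 (edgeR adjusted p = 2.04e-07 and 9.07e-05). Dpp4, the peptidase that trims the amino terminus of Ccl11, Cxcl10 and Cxcl12, fell with a change of -0.92 ± 0.27 (adjusted p = 0.0198), as did Mmp9 (-1.26 ± 0.43, adjusted p = 0.0377). Mmp2 and Mmp14 stayed called without the library labelled WT TAC 1, and Dpp4 (-0.81, adjusted p = 0.109) and Mmp9 (-1.18, adjusted p = 0.14) did not. Adam10 and Adam17, which shed Cx3cl1, were not called.

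Of 21 cytokine and regulator genes that control chemokine transcription, 17 were tested. Over both genotypes 7 rose and none fell, against 14.2% of all genes higher and 13.1% lower, with a median change of 0.22. Il4ra, the receptor chain through which Il4 and Il13 induce eotaxins, rose by 0.59 ± 0.09 (edgeR adjusted p = 0.00034) while Ccl11 and Ccl24 fell. The TNF receptor gene Tnfrsf1a rose by 0.37 ± 0.07 (adjusted p = 0.00109), and the NF-kappaB genes Relb and Nfkb2 by 0.37 ± 0.09 and 0.24 ± 0.06 (adjusted p = 0.00552 and 0.0115). Leaving out the library labelled WT TAC 1 kept 5 of the 7 calls, these 4 and Rela, and among the 10-week libraries alone only Tnfrsf1a and Il4ra were called.

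Markers of other cells moved with the same comparison, and their part in the chemokine changes was not tested. For the counts that follow, 14.2% of all tested genes were called higher and 13.1% lower over both genotypes. Of 14 macrophage markers 8 rose after TAC over both genotypes (median change 0.38), led by Fcgr1 (1.21 ± 0.15, edgeR adjusted p = 3.85e-05) and C1qb (0.68 ± 0.09, adjusted p = 9.74e-05). The other 6 were not called, and the changes of the 14 ran from -0.59 to 1.21, so the list did not move as 1. The summed level of the 14 was 326 to 390 CPM in KO TAC and 234 to 309 CPM in KO sham hearts. In WT hearts it was 369 to 436 CPM after TAC and 299 to 350 CPM after sham. The sums did not overlap within a genotype, and no marker was at 0. Leaving out the library labelled WT TAC 1 kept 5 of these calls, Fcgr1, C1qa, C1qb, C1qc and Cd14. Of 5 monocyte and neutrophil markers tested Ccr2 alone rose. Of 11 fibroblast markers 5 rose and 1, Scara5, fell (-1.17 ± 0.09, adjusted p = 9.1e-07), with summed levels of 2526 to 3689 CPM in TAC and 2117 to 3040 CPM in sham hearts, and 4 rose and Scara5 fell without the library labelled WT TAC 1. Of 9 endothelial markers 2 rose, Pecam1 by 0.24 ± 0.08 and Cdh5 by 0.28 ± 0.10 (adjusted p = 0.0325 and 0.0394). Of 8 smooth muscle and pericyte markers Cspg4 alone rose (0.29 ± 0.08, adjusted p = 0.019). Of 5 lymphocyte markers tested Cd79b rose (0.55 ± 0.20, adjusted p = 0.049), and none of 5 mast cell, 1 mesothelial and 3 adipocyte markers tested was called. Leaving that library out, no endothelial, smooth muscle, pericyte or lymphocyte marker was called.

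Cardiomyocyte markers, the check of the tissue, summed to 33638 to 45322 CPM in TAC and 37514 to 46164 CPM in sham hearts. Over both genotypes 2 of 8 rose and 1, Ryr2, fell, against 14.2% of all genes higher and 13.1% lower.

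Eosinophil markers were near the limit of detection in all groups. Their summed level over 8 genes was 0.217 to 0.963 CPM in TAC and 0.275 to 0.937 CPM in sham hearts, and none was abundant enough to test. Epx, Ear1 and Ear6 had no read in any library, which allows up to 0.147 to 0.263 CPM per library, taking 3 reads as the limit for a count of 0 and covering counting error only. The eosinophil sums overlapped between the surgeries, but at so low a level they cannot show whether eosinophils changed. Their part in the Ccl11 change was not tested. Adipocyte markers were low and uneven, with a summed level of 0 to 3.48 CPM in TAC and 0 to 13.5 CPM in sham hearts.

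The tested genes most like Ccl11 over the 14 libraries, by the root mean square difference of centred log2 CPM, were Pfkfb1 (0.40), Phactr3 (0.47) and Clcn1 (0.49). Pfkfb1, which makes a regulatory enzyme of glycolysis, was at 3.38 to 8.1 CPM in TAC and 16.2 to 49.7 CPM in sham hearts. Clcn1, the chloride channel gene of skeletal muscle, was at 2.38 to 6.82 CPM in TAC and 11 to 27 CPM in sham hearts. The genes most like Ccl8 were Cxcl10 (0.26), Adam12 (0.35) and Ms4a6d (0.36), and those most like Cxcl10 were Ccl8 (0.26), Cd52 (0.29) and Ly86 (0.30). Ms4a6d, Cd52 and Ly86 are genes of leukocytes, and Adam12 encodes a metalloprotease. Cx3cl1 was most like Tspan17 (0.16), Chpf (0.18) and Usp27x (0.18). The likeness is a description over 14 libraries that share the surgery difference.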

How the data were processed

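RNA of 14 mouse hearts was sequenced after poly(A) selection and strand-specific library preparation, per the labels' protocols. Per the submitters' processing notes, bcl2fastq 2.17.1.14, STAR 2.4.2a, Picard 2.10.3 and the builds mm10 and GRCm38 were used. The deposited values are raw counts of reads per gene with a coding and an untranslated part, per the file headers; the sources used here give no version, annotation or strand setting for the counter. Symbols, positions and exon lengths came from GENCODE M21 (GRCm38), in which 51633 of 51912 identifiers were found. Library sizes hold neither reads outside features (15.3% ± 2.42, SD, n = 14) nor ambiguous ones (1.52% ± 0.048). Reads outside features made up 10.7% to 14.9% in TAC and 14.3% to 19% in sham hearts, lowest in the library labelled WT TAC 1. Their part in the TAC changes was not tested.

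After filterByExpr (minimum count 10; 36261 genes not tested) the counts were scaled by TMM and fitted in edgeR 4.0.16 (R 4.3.3) by the quasi-likelihood test, with 1 coefficient per group over all 14 libraries (biological coefficient of variation 11.8%). TAC was set against sham within KO hearts, within WT hearts and as their mean, KO against WT within either surgery, and the interaction was tested, with Benjamini-Hochberg adjustment over all tested genes at 0.05. For single genes, log2 CPM (prior count 2) went into a two-sided exact permutation test. DESeq2 1.42.0, other size factors, no filter, coding counts, age and left-out libraries were alternatives. The scripts were tested on simulated data. Nothing in the labels says in words that each library is a separate animal, and the spread behind the p-values may then be technical. The 10 genes and the gene lists were chosen with earlier results of these data known. The text names all 10 genes, for each list described up to 4 genes of smallest p after TAC over both genotypes, the receptors of the 10 (1 is not reported here), Ccl12 and Ccl24, and the 3 genes of most alike pattern for each called gene; Arntl, Art3, Adam10, Adam17 and Ackr4 were added after values were seen.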

Additional observations from a re-analysis of the deposited data

Results flagged for a closer look

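In 30 groups of 4 libraries, 1 for each chemokine gene and group, 2 held a library far from the other 3, and chance flags about 1 in 20 groups. Ccl2 was at 2.23 CPM in KO TAC 3, against 2.95 to 3.04 CPM in the other 3 KO TAC hearts. Cx3cl1 was at 12 CPM in KO TAC 2, against 13.9 to 14.3 CPM in the other 3 KO TAC hearts, and still above all KO sham hearts.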

How the results depend on the processing

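Over both genotypes, Ccl11, Ccl8, Cxcl10 and Cx3cl1 stayed past the threshold after TAC in each of 14 fits that left out 1 library, with changes of -3.22 to -2.42, 1.18 to 1.37, 1.27 to 1.47 and 0.5 to 0.6. In KO hearts, where 4 of the 10 genes were called, 2 were called from coding counts (7.86% of all genes called there, against 13% in all) and 0 among the 10-week libraries (0.0975%), and 2 to 4 when 1 library was left out (5.1% to 13.3%). In WT hearts, also with 4 called, 1 was called when only the groups compared were fitted (7.02% of all genes, against 12.2%), 2 from coding counts (9.14%), 2 among the 10-week libraries (6.09%), and 1 to 5 when 1 library was left out (3.16% to 13.7%). Genotype averaged over both surgeries called 0 to 1 gene of the 10 when 1 library was left out (3.19% to 9.04% of all genes). Uncalled changes turned sign for Ccl6 over both genotypes (-0.08 to 0.04 with 1 library left out), Ccl7 over both genotypes (0.01 among 10-week libraries and 0.01 with age as a covariate) and Cxcl12 in KO hearts (-0.11 to 0.04 with 1 library left out). The causes were not tested. Of all genes, 15 were called after TAC in KO hearts among the 10-week libraries and 588 with age as a covariate, against 2033 in all, and in WT hearts 512 without the library labelled WT TAC 1, against 1912. Counts of 4 to 43 reads limit Cxcl10 and Ccl8. No paired analysis was possible because the labels give no replicate numbers, and the numbers used here pair no hearts.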
